A study of Mus musculus with 36 samples.

Results

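Naive CD4 T cells that lacked AGO1, AGO3 and AGO4 were set against wild-type (WT) naive cells by sequencing their small RNAs and counting the microRNAs (miRNAs). The 4 libraries of the AGO134-/- genotype, called AGO134 knockout here, and the 4 WT libraries are 8 of the 36 libraries of a mouse CD4 T cell series, and were chosen by their titles. All 8 came from C57BL/6J mice, and the series text describes the mice as littermates. Spleen cells were enriched on beads and sorted by flow cytometry as CD4+ TCRb+ T cells, and RNA was taken at day 0, before any activation or T helper 2 (Th2) culture. CD4 and TCRb do not set naive cells apart from other CD4 T cells. How many other CD4 T cells the sorted cells held was not tested. Ago2 was not targeted in either group. The same experiment holds later libraries of both genotypes at day 7 (4 and 4) and day 14 (3 and 3) of Th2 culture, which enter the fit and are used below only to ask where the naive effect differed. The labels name no Cre driver, no sex and no age. They do not say whether replicates are separate animals, so the spread behind the p-values may be technical. The edgeR and limma fits below estimated that spread over all 22 libraries of the experiment, Th2 cultures included. Their p-values therefore do not reflect the spread of the 8 naive libraries alone, while the permutation tests used only those 8. The Ago genes are not measured by miRNA counts, and the genotype labels were therefore not checked.

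Argonaute (AGO) proteins hold miRNAs and bring them to target mRNAs. A hairpin precursor is cut into a duplex of a 5′ arm (5p) and a 3′ arm (3p). An AGO protein usually keeps 1 arm and discards the other, and the choice is known to favour the arm whose 5′ end is less tightly paired and the arm that begins with uridine or adenosine. Bases 2 to 8 of the kept arm, the seed, pair with the target. Of the 4 mouse AGO proteins, AGO2 is the one known for slicing targets.

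The hairpins below are shown because the balance of their 2 arms differed between the genotypes. The sequences are from RefSeq on GRCm38.p6, and capitals mark the 2 mature arms, the 5p arm first. Mir181a-1 lies at chr1:137966455-137966541 on the plus strand, in an intron of Gm4258. Mir342 lies at chr12:108658620-108658718 on the plus strand, in an intron of Evl. Mir30e lies at chr4:120772606-120772697 on the minus strand, in an intron of Nfyc. Mir32 lies at chr4:56895229-56895298 on the minus strand, in an intron of Tmem245. Mir92-1 lies at chr14:115044427-115044506 on the plus strand, in an exon of Mir17hg.
Mir181a-1: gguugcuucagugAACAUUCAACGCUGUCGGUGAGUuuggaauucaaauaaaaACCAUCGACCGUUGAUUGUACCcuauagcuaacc
Mir342: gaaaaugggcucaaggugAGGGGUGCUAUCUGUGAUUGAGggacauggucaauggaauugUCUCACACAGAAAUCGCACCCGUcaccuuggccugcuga
Mir30e: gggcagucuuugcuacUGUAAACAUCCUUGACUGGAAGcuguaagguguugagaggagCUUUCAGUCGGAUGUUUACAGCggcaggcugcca
Mir32: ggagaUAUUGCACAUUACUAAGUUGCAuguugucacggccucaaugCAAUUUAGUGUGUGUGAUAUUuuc
Mir92-1: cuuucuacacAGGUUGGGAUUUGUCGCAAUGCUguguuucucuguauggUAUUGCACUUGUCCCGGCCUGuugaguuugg

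The next set shows mature miRNAs that share a seed and were higher in the knockout, alone or as a share of their hairpin. Capitals mark the seed, bases 2 to 8. The let-7 family shares GAGGUAG, and let-7d-5p starts with adenosine where the other let-7 miRNAs shown start with uridine.
let-7a-5p: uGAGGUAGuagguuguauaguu
let-7c-5p: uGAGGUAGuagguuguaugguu
let-7f-5p: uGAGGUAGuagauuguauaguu
let-7g-5p: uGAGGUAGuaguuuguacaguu
let-7d-5p: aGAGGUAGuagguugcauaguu
miR-25-3p, miR-92a-3p and miR-32-5p come from different hairpins and share AUUGCAC.
miR-25-3p: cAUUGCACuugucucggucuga
miR-92a-3p: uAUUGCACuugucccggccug
miR-32-5p: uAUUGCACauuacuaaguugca

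Of 9 tested arms of the miR-181 family 1 rose, miR-181a-5p, and 3 fell. miR-181b-5p shares the seed ACAUUCA with miR-181a-5p and did not pass (log2 change -0.16). The 3p arms that fell carry CCAUCGA or CCACCGA. The mirtron miR-877-5p and the 3p arms miR-331-3p and miR-330-3p were among the largest decreases, and are shown as examples that start with guanosine. Most decreases do not start with it. Of the 30 decreases that passed the test below and have a sequence, 4 start with guanosine. Among all 306 tested miRNAs with a sequence, 32 do. miR-32-3p, which fell more than miR-330-3p (log2 changes -1.11 and -0.99), starts with cytidine and is left out of this set.
miR-181a-5p: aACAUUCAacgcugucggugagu
miR-181b-5p: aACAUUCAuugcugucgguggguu
miR-181a-1-3p: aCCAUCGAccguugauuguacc
miR-181a-2-3p: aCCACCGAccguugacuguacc
miR-181c-3p: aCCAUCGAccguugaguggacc
miR-877-5p: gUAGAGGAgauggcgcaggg
miR-331-3p: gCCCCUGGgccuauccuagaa
miR-330-3p: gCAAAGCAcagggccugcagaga

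The miRNA counts per library were 148455, 166735, 195122 and 64264 in AGO134 knockout cells, against 243748, 218832, 234018 and 196357 in WT cells. Knockout library 4 was the shallowest and stood apart in several measures below, and values without it are given where they matter. Entries named STD, which name no miRNA and which the labels do not explain, took 46.9% to 56.9% of the counts in knockout libraries and 40.2% to 43.9% in WT libraries. Of the 1966 mature names in the files, 890 had a count in the 8 libraries. The filter on low counts was applied over the 22 libraries of the experiment, and 382 names passed it. In the naive libraries alone 280 passed. T cell and blood cell miRNAs were abundant in all 8 libraries, with miR-142a-5p at 5714 to 12391 CPM in knockout and 7173 to 11227 CPM in WT libraries, where CPM means counts per 1e6 miRNA counts after TMM scaling. The summed level of the myeloid list (6 names, 2 of them at 0 in all 8 libraries) was 19.7 to 34.0 CPM in knockout libraries and 26.1 to 42.6 CPM in WT libraries. The red cell and platelet list (7 names, 0 at 0 in all 8 libraries) summed to 495 to 1121 CPM in knockout and 547 to 1340 CPM in WT. The endothelial and stromal list (12 names, 2 at 0) summed to 135 to 587 CPM in knockout and 145 to 402 CPM in WT. The epithelial, liver and muscle list (29 names, 11 at 0) summed to 3802 to 5598 CPM in knockout and 4194 to 5151 CPM in WT. All 4 ranges overlapped between the genotypes. The myeloid miR-223-3p had 11 counts over the 4 knockout libraries and 26 over the 4 WT libraries, miR-511-3p and miR-511-5p had 0 in both, and the red cell miR-451a had 0 and 3. Red cell miR-144-3p had 6 and 77 counts, and muscle miR-1a-3p had 5 and 54. Of the tested members of the lists, 0 passed the test below in the first 3 (2, 2 and 3 tested), and in the fourth 1 of 9 rose (miR-200c-3p) and 1 fell (miR-184-3p). Their part in the results was not tested.

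Whole libraries differed in what kind of miRNA took the counts. miRNAs that start with uridine took 65.0%, 65.7%, 64.4% and 68.7% of the counts in AGO134 knockout libraries, against 61.4%, 62.8%, 61.8% and 63.4% in WT libraries. Each knockout library lay above each WT library. The means were 66.0% ± 1.93 in knockout and 62.3% ± 0.904 in WT (SD, n = 4 each), a difference of 3.61 percentage points (two-sided exact permutation test, p = 0.0286, the smallest that 4 against 4 allows; 0.0429 adjusted over 6 measures). Without knockout library 4 the difference was 2.68 points, still without overlap, and without WT library 1 or WT library 3 it was 3.30 or 3.42 points with an exact permutation p of 0.0571. Adenosine starts took 17.4% ± 0.505 in knockout and 19.2% ± 0.717 in WT, cytidine starts 16.04% ± 1.35 and 17.6% ± 0.255, and guanosine starts 0.559% ± 0.112 and 0.801% ± 0.0308 (SD, n = 4). Between 84.0% and 85.7% of the counts of a library fell on miRNAs with a RefSeq sequence, and the shares are of those counts. The let-7 seed, carried mostly by miRNAs that start with uridine, took 26.1% ± 4.43 of all miRNA counts in knockout and 21.7% ± 1.56 in WT (SD, n = 4). The part of this family in the uridine difference, and in the GC difference below, was not tested.

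The count-weighted mean GC content of the mature sequences was 45.2%, 45.1%, 45.4% and 44.2% in knockout libraries, against 46.2%, 45.5%, 45.9% and 45.6% in WT libraries. No knockout library reached a WT library. The difference was -0.819 points (exact permutation p = 0.0286, 0.0429 adjusted), and without knockout library 4 it was -0.549 points with an exact permutation p of 0.0571. The call was also lost without any single WT library.

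Fewer different miRNAs were detected in the knockout when every library was thinned to 64264 counts. The mean over 20 draws was 430.1, 441, 441 and 386 miRNAs in knockout libraries, against 477, 469, 474 and 458 in WT libraries. All 4 knockout libraries lay below all 4 WT libraries, by 44.9 miRNAs on average (exact permutation p = 0.0286, 0.0429 adjusted). The 10 most abundant miRNAs held 42.4% ± 7.08 of the counts in knockout and 35.1% ± 2.09 in WT, groups that overlapped (SD, n = 4, exact permutation p = 0.0571, 0.0686 adjusted).

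Relative to the STD entries, miRNAs were fewer in the knockout. There were 0.742, 0.793, 0.853 and 0.544 miRNA counts per STD count in knockout libraries, against 1.12, 1.06, 0.968 and 0.958 in WT libraries. The groups did not overlap (exact permutation p = 0.0286, 0.0429 adjusted), and without WT library 1 the p was 0.0571. In RNA from a sorted population, fewer cells and less RNA per cell cannot be told apart, and no source used here says what the STD entries measure.

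**Figure D1:**
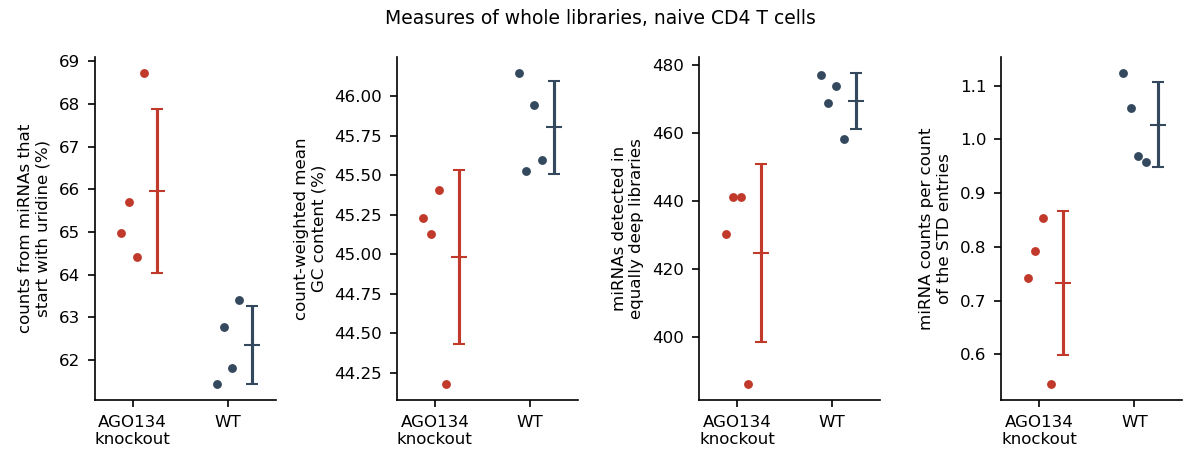
Each panel plots 1 measure (y axis, in the unit named) for the 4 AGO134 knockout and the 4 WT naive libraries as points, with the mean and SD beside them; the y axes do not start at 0. The knockout libraries had more counts on miRNAs that start with uridine (66.0% and 62.3%), and lower GC content, fewer miRNAs detected at equal depth (64264 counts) and fewer miRNA counts per STD count, with no overlap between the genotypes in any of the 4 panels.

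The arms of a hairpin come from the same precursor, and their ratio within a library does not depend on a scaling factor common to the whole library. A scaling that varies with the level of a miRNA could change the ratio, and none was tried for it. The ratio of the less abundant (minor) to the more abundant (major) arm was compared for 70 hairpins whose minor arm averaged at least 10 counts, a test chosen after the data were seen. The ratio differed at 28 hairpins (40% of those tested, limma with adjusted p under 0.05). The minor arm's share fell in the knockout at 22 of them (31.4%) and rose at 6 (8.57%). Over all 70 hairpins the log2 ratio was lower in the knockout at 48, and the median difference was -0.31. Of the 28, 20 had no overlap between the 4 knockout and the 4 WT libraries, and of all 70 hairpins 21 had none.

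Of 5 miR-181 hairpins tested, Mir181a-1, Mir181a-2 and Mir181c had a lower share of their 3p arms. The other two did not pass, with log2 ratio differences of -0.38 at Mir181b-1 (limma adjusted p = 0.539) and 0.21 at Mir181d (adjusted p = 0.658). miR-181a is known for tuning the sensitivity of the T cell receptor through phosphatases. miR-181a-1-3p made up 2.26%, 2.59%, 2.48% and 0.860% of the counts of its hairpin in knockout libraries, against 8.13%, 7.22%, 5.06% and 3.97% in WT libraries. The highest knockout library was below the lowest WT library, and the log2 arm ratio fell by 1.70 (SE 0.29, limma adjusted p = 0.000146). Without knockout library 4 the fall was 1.32. miR-181a-2-3p averaged 2.997% ± 1.14 in knockout and 7.62% ± 0.899 in WT (SD, n = 4, adjusted p = 0.0225 by limma), a call that was lost without knockout library 4 (adjusted p = 0.102), WT library 1 (0.0516) or WT library 3 (0.0520). Both share miR-181a-5p as major arm, since its 2 loci give the same sequence. miR-181c-3p, from the hairpin Mir181c, averaged 9.74% ± 0.891 in knockout and 15.6% ± 1.20 in WT (SD, n = 4, limma adjusted p = 0.0014).

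Mir342 and Mir30e changed in opposite arms. miR-342-5p made up 11.4%, 12.1%, 12.5% and 8.32% of its hairpin in knockout libraries, against 19.5%, 23.7%, 19.9% and 20.5% in WT libraries. All knockout values lay far below all WT values, and the log2 ratio fell by 1.10 (SE 0.17, limma adjusted p = 6.42e-05), the smallest p of the 70. At Mir30e the 5p arm gained. miR-30e-5p made up 49.7%, 53.0%, 48.1% and 50% in knockout libraries, against 29.1%, 38.4%, 27.1% and 25.2% in WT libraries. The arms were thus near balance in all 4 knockout libraries, while the 3p arm held most counts in all 4 WT libraries (log2 ratio difference 1.25, SE 0.24, limma adjusted p = 0.000442). At Mir342 the arm that gained share is the 3p arm and at Mir30e it is the 5p arm. In both hairpins, the capitals above show that it is the arm that starts with U.

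Mir32 and Mir92-1 gained the arms that carry the AUUGCAC seed. miR-32-5p made up 46.2%, 50%, 42.2% and 28.6% of its hairpin in knockout libraries, against 18.9%, 11.6%, 26.7% and 11.8% in WT libraries. The groups did not overlap (log2 ratio difference 1.84, SE 0.39, limma adjusted p = 0.000821), on 2 to 20 counts of miR-32-5p per library, and the call was lost with libraries thinned to equal depth (adjusted p = 0.0925). miR-92a-3p, of the miR-17-92 cluster that is known to promote lymphocyte growth, made up 50.6%, 44.3%, 40.9% and 85.8% in knockout libraries, against 30.5%, 33.7%, 36.4% and 38.4% in WT libraries. Knockout library 4 was far above the rest. The log2 ratio difference was 1.35 (SE 0.42, limma adjusted p = 0.0128) with that library and 0.63 (adjusted p = 0.0431) without it. The call was lost with naive libraries fitted alone (adjusted p = 0.0697) and at equal depth (adjusted p = 0.0558). miR-92a-3p also comes from a second locus on chromosome X, whose counts cannot be told apart from those of Mir92-1.

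Other hairpins followed with their minor arm lower. Mir331 had the largest fall, with miR-331-3p at 18.5% ± 6.31 of the hairpin in knockout and 46.7% ± 4.46 in WT (log2 ratio difference -1.81, SE 0.31, limma adjusted p = 0.000146; SD, n = 4), on 1 to 7 counts of miR-331-3p in knockout libraries and 15 to 26 in WT libraries. miR-7a-1-3p averaged 16.9% ± 3.36 in knockout and 31.7% ± 1.35 in WT, and miR-130b-5p 21.1% ± 2.14 and 34.1% ± 2.41 (SD, n = 4). The hairpin of miR-150, a miRNA of mature lymphocytes known for repressing Myb, had 15.6% ± 3.32 of its counts on miR-150-3p in knockout and 21.5% ± 2.53 in WT (SD, n = 4, limma adjusted p = 0.0123), a call that was lost with naive libraries fitted alone (adjusted p = 0.0726). The other hairpins with a lower minor arm were Mir181c (above), miR-1839, Mir27b, Mir26b, Mirlet7f-2, Mir322, miR-466c, Mir25, Mir191, Mir425, Mir18, miR-140, Mirlet7d, miR-363 and Mir361. The other 3 with a higher minor arm were Mir28a, Mir1843a and Mir219a-1. The calls of Mir130b, Mir181a-1, Mir181c, Mir1843a, Mir26b, Mir27b, Mir28a, Mir30e, Mir331, Mir342, Mir425 and Mir7-1 held in every alternative in which they were tested, and each of the others was lost in at least 1.

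**Figure D2:**
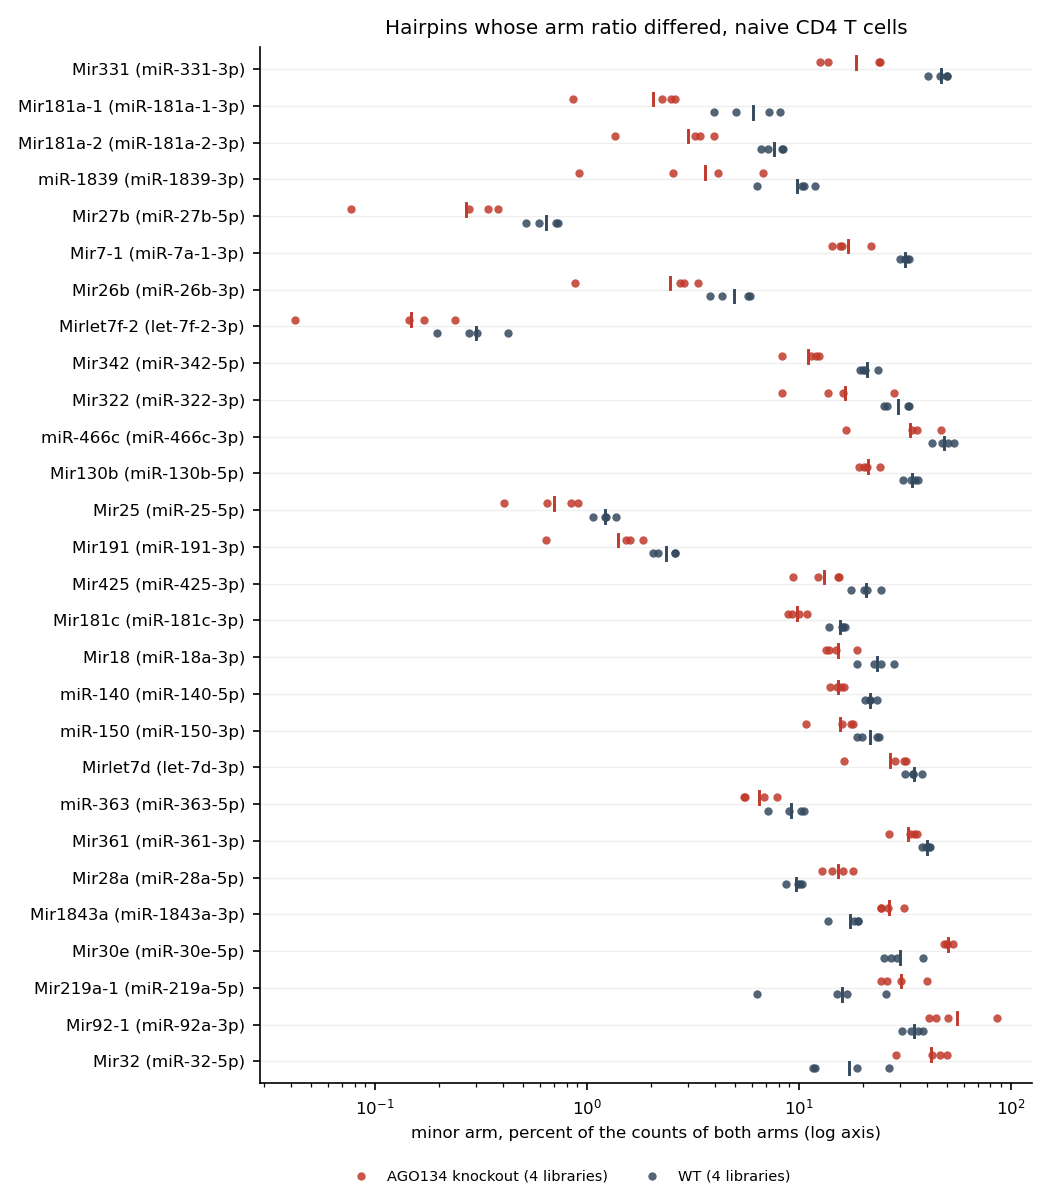
For each of the 28 hairpins whose arm ratio differed, the minor arm's percent of the counts of both arms (x axis, log scale) is plotted for the 4 AGO134 knockout libraries (upper row of points) and the 4 WT libraries (lower row), with the group mean as a vertical bar. In the upper 22 hairpins the knockout points lie mostly to the left, as for Mir181a-1 (2.05% and 6.09%), and in the lower 6 to the right, as for Mir30e (50.2% and 29.96%).

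The first bases and GC content of the arms that gained share are described here without a test. Of the 28 hairpins, 23 have both arms in RefSeq. The arm that gained share in the knockout starts with uridine in 12 of the 23 and the arm that lost share in 2. In 10 hairpins only the gaining arm starts with uridine, as in Mir342, Mir30e, Mir32 and Mir92-1, and in 0 hairpins only the losing arm does. Among the 31 hairpins with both sequences whose ratio did not pass, the gaining arm starts with uridine in 17 and the losing arm in 10. Only the gaining arm does so in 13 of the 31, and only the losing arm in 6. A uridine start of the gaining arm was thus about as frequent where the ratio did not pass. The gaining arm has the lower GC content in 18 of the 23 and the higher in 4, against 15 and 15 of the 31. Both arms of Mir181a-1, Mir181a-2 and Mir181c start with adenosine, and the gaining 5p arm has the lower GC content in each of these. At Mir181b-1 and Mir181d, which did not pass, the 3p arm starts with cytidine and the arm with the higher share in the knockout has the higher GC content.

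Over all minor arms as a whole, the groups overlapped. The library median of the log2 ratio over 212 hairpins was -4.77 ± 0.574 in knockout and -5.22 ± 0.167 in WT (SD, n = 4, exact permutation p = 0.114). The difference was 0.45, and -0.02 when hairpins with fewer than 50 counts on average were left out.

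Single miRNAs were tested with edgeR's quasi-likelihood test after TMM scaling. In the knockout 31 of 382 miRNAs rose (8.12%) and 39 fell (10.2%), in all 70 or 18.3%, at adjusted p under 0.05, and 111 had an unadjusted p under 0.05. Changes were small on the whole. Of those called, 1 increase and 11 decreases reached 2-fold, and the median log2 change of all 382 was -0.05. The 4 knockout and 4 WT libraries did not overlap for 54 of the 70. The count of calls was 37 without WT library 1 and 46 without knockout library 4. Over all 382, 31 lay wholly higher in the knockout (8.12%) and 41 wholly lower (10.7%).

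The increases depended on the scaling. With DESeq2 size factors in edgeR 36 rose and 30 fell, and with DESeq2 itself 39 and 28. Scaled by library size alone, the median change of all 382 was -0.33, with 8 called higher and 80 lower. Scaled to the STD entries it was -0.77, with 0 higher and 204 lower by edgeR. With loess offsets, which let the scaling vary with the level of a miRNA, 20 rose and 35 fell, and let-7a-5p (0.27, edgeR adjusted p = 0.104), miR-150-5p (0.26, adjusted p = 0.104) and miR-25-3p (0.12, adjusted p = 0.229) lost their calls. With the naive libraries fitted alone 6 of 280 rose and 46 fell. Increases are given below relative to the other miRNAs under TMM scaling. Among the named decreases, 14 kept their call in every alternative in which they were tested, among them miR-351-5p, miR-877-5p, miR-330-3p, miR-30e-3p, miR-331-3p and the miR-181a-1, miR-181a-2 and miR-181c 3p arms. Another of the 14, miR-1839-3p, did not pass the filter in the naive libraries alone and was not tested there. None of the named increases kept its call in every alternative, and miR-92a-3p and miR-3963 lost theirs only under STD scaling.

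**Figure D3:**
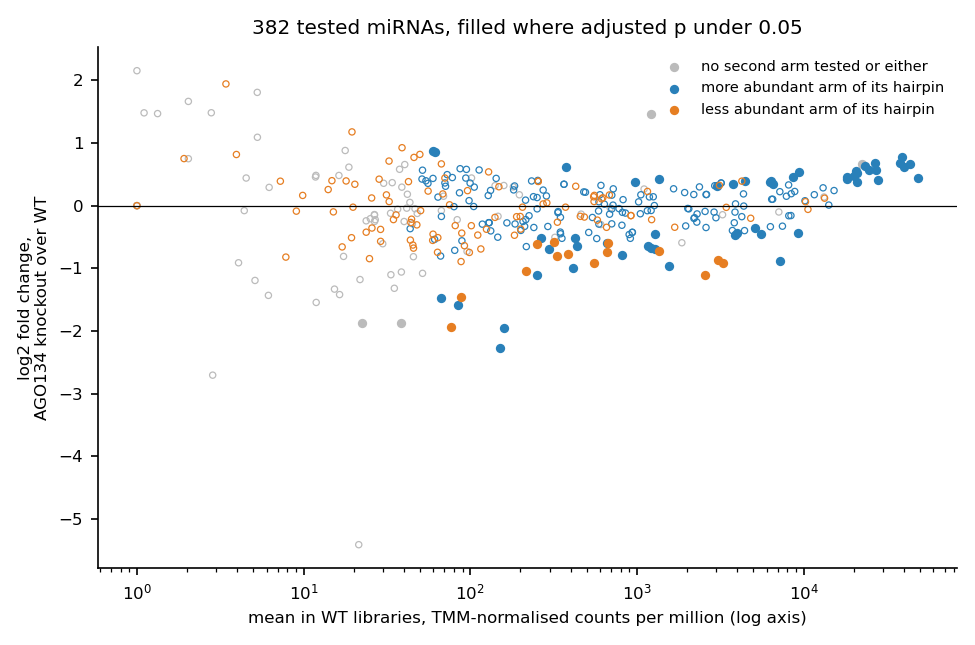
The log2 fold change of AGO134 knockout over WT (y axis) is plotted against the mean level in WT libraries (x axis, TMM-normalised CPM, log scale) for the 382 tested miRNAs, coloured by whether the miRNA is the more or the less abundant arm of its hairpin and filled where the adjusted p was under 0.05. The 31 filled points above 0 include 0 minor arms and lie mostly at the right, with a median WT level of 18323 CPM; the 39 below 0 include 14 minor arms and have a median WT level of 551 CPM.

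Increases fell on abundant major arms. Of the 31, 29 were the major arm of their hairpin and 0 the minor arm; of the 39 decreases 23 were major and 14 minor arms. Among all tested miRNAs with a partner 36.3% were minor arms. The median WT level was 18323 CPM for the increases, 551 CPM for the decreases and 236 CPM for all tested. Of the increases with a sequence, 19 of 24 start with uridine (79.2%), of the decreases 9 of 30 (30%), and of all tested miRNAs 41.2%. The median GC content was 42.2% for the increases, 50% for the decreases and 50% for all tested. These are descriptions of the called sets, with no test.

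The let-7 family, known for holding cells in a differentiated state and for targeting Il13 in T cells, was higher in its guide strands. let-7a-5p was at 57401, 51623, 50434 and 108121 CPM in knockout libraries, against 29519, 40141, 37642 and 48045 CPM in WT libraries. The groups did not overlap, and knockout library 4 was far above the others of its group. The log2 change was 0.78 (SE 0.19, edgeR adjusted p = 0.00417), and 0.48 without knockout library 4 (adjusted p = 0.0291). let-7c-5p was at 37651, 36531, 33306 and 66254 CPM in knockout, against 24461, 26543, 23973 and 32582 CPM in WT (log2 change 0.69, edgeR adjusted p = 0.00335), a change that was 0.44 without knockout library 4. let-7g-5p was at 33233, 28729, 30498 and 52710.5 CPM in knockout, against 20408, 22838, 24059 and 26186 CPM in WT (log2 change 0.63, edgeR adjusted p = 0.00329). Both were higher in every knockout library than in any WT library. The rises of let-7a, let-7c, let-7g, let-7f, let-7i and let-7d were all lost when the naive libraries were fitted alone (edgeR adjusted p from 0.0757 to 0.11).

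Of 11 let-7 guide strands tested, 7 rose and 0 fell, and their median log2 change was 0.48, beside -0.05 for all tested miRNAs, but 0.15 by library size alone, 0.12 with loess offsets and -0.34 by STD scaling. Of all 382 tested miRNAs 8.12% rose. With loess offsets let-7c-5p kept its call, and let-7a-5p, let-7d-5p, let-7f-5p, let-7g-5p and let-7i-5p lost theirs (edgeR adjusted p from 0.104 to 0.434). let-7f-5p, let-7i-5p, let-7d-5p and let-7b-5p were the other 4. let-7e-5p (0.32, edgeR adjusted p = 0.284) and miR-98-5p (0.08, adjusted p = 0.632) did not pass. Of 8 let-7 passenger strands tested 0 passed, with a median of -0.02. Reads of near-identical let-7 members may be shared between them, so the separate values are uncertain. Summed over the GAGGUAG seed, the family rose by 0.80 (edgeR adjusted p = 0.00382). As a plain share of all miRNA counts, the seed took 24.5%, 24.5%, 22.8% and 32.7% in knockout libraries, against 19.6%, 22.2%, 21.6% and 23.3% in WT libraries. In that unscaled form 1 knockout library lay below the highest WT library.

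miR-150-5p, which is known to fall when T cells are activated, was at 58313, 49925, 50609 and 83486 CPM in knockout libraries, against 34451, 35456, 37524 and 43315 CPM in WT libraries. The groups did not overlap (log2 change 0.68, SE 0.15, edgeR adjusted p = 0.00236). Its partner miR-150-3p was at 10708 ± 506 CPM in knockout and 10256 ± 782 CPM in WT (SD, n = 4, log2 change 0.06, edgeR adjusted p = 0.767). miR-181a-5p was at 57409, 48083, 47587 and 93340.1 CPM in knockout libraries, against 36555, 38891, 38107 and 46582 CPM in WT libraries (log2 change 0.62, SE 0.16, edgeR adjusted p = 0.00543). Every knockout library was above every WT library, and without knockout library 4 the change was 0.38 (adjusted p = 0.0291). When the naive libraries were fitted alone, the rises of miR-150-5p and miR-181a-5p were lost (edgeR adjusted p = 0.0681 and 0.114). That of miR-181a-5p was also lost by library size alone (0.27, edgeR adjusted p = 0.113) and with loess offsets (0.41, adjusted p = 0.0538). The related miR-181b-5p, which has the same seed, averaged 7263 ± 662 CPM in knockout and 8144 ± 215 CPM in WT (SD, n = 4, log2 change -0.16, edgeR adjusted p = 0.359).

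The 3p arms of Mir181a-1, Mir181a-2 and Mir181c fell, while miR-181b-1-3p (log2 change -0.64, edgeR adjusted p = 0.223) did not pass. miR-181a-1-3p was at 1325, 1278, 1211 and 809.9 CPM in knockout libraries, against 3233, 3029, 2029.9 and 1926 CPM in WT libraries. The groups were well apart (log2 change -1.11, SE 0.17, edgeR adjusted p = 3.82e-05). miR-181a-2-3p was at 1719 ± 313 CPM in knockout and 3276 ± 208 CPM in WT, and miR-181c-3p at 273 ± 80.5 and 551 ± 89.5 CPM (SD, n = 4, log2 changes -0.91 and -0.92). Of 9 miR-181 family arms tested, 1 rose and 3 fell, with a median of -0.32. Mir181a-1 and Mir181b-1 lie in 1 cluster of chromosome 1, whose 4 tested arms had changes of 0.62 (miR-181a-5p), -1.11 (miR-181a-1-3p), -0.16 (miR-181b-5p) and -0.64 (miR-181b-1-3p).

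miR-92a-3p had the largest increase among the miRNAs called. It was at 2142, 1882, 1625 and 8571 CPM in knockout libraries, against 1125, 1170.0, 1261 and 1319.7 CPM in WT libraries. Knockout library 4 was far above every other library. The log2 change was 1.46 (SE 0.34, edgeR adjusted p = 0.00335) and was 0.66 without that library (adjusted p = 0.0332). miR-25-3p, with the same seed and of the miR-106b-25 cluster in an intron of Mcm7, was at 38888, 32656, 34834 and 55163 CPM in knockout, against 24234, 27496, 25049 and 31624 CPM in WT (log2 change 0.57, SE 0.13, edgeR adjusted p = 0.00329). All knockout libraries were above all WT libraries, but the call was lost with naive libraries fitted alone (adjusted p = 0.0958). The AUUGCAC seed group rose by 0.70 in sum (edgeR adjusted p = 0.00382). As an unscaled share it took 3.85%, 3.52%, 3.74% and 4.67% of miRNA counts in knockout libraries, against 3.37%, 3.46%, 3.41% and 3.60% in WT libraries, and 1 knockout library lay below the highest WT library. Of 19 tested members of miR-17-92 and its paralog clusters, 2 rose (miR-92a-3p and miR-25-3p) and 2 fell (miR-363-5p and miR-18a-3p), with a median of 0.06, beside 8.12% and 10.2% of all 382 tested, so that the counts are near the background. miR-17-5p, of the same transcript as miR-92a-3p, averaged 551 ± 178 CPM in knockout and 553 ± 139 CPM in WT (SD, n = 4).

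Among regulators of T cell responses, miR-146a-5p, known for restraining NF-kB signalling through Traf6 and Irak1, was at 12579.5, 12844, 13387 and 15343 CPM in knockout, against 8586, 9245, 8695 and 10892 CPM in WT (log2 change 0.53, SE 0.12, edgeR adjusted p = 0.00284). miR-155-5p, needed for effector T cell and Th2 responses in mice, was at 11992, 10549, 11021 and 13588 CPM in knockout, against 8619, 8287, 7950.1 and 9439.8 CPM in WT (log2 change 0.46, edgeR adjusted p = 0.00963). Neither overlapped between the groups. Scaled by library size alone, the changes were 0.22 (adjusted p = 0.154) and 0.13 (adjusted p = 0.332). The miR-155-5p call was also lost with loess offsets (0.23, edgeR adjusted p = 0.104), with naive libraries fitted alone (0.0518), with no filter (0.0673) and without WT library 1 (0.0537). miR-142a-3p (log2 change 0.39), miR-24-3p (0.10), miR-27a-3p (0.18), miR-29a-3p (0.15) and miR-21a-5p (0.19) did not pass. For the lists that follow, 8.12% of all 382 tested miRNAs rose and 10.2% fell. Of the 12 core T cell miRNAs 5 rose and 0 fell (median 0.31 beside -0.05 for all tested, but 0.21 with loess offsets and -0.42 by STD scaling). Of 14 tested regulators of Th2 differentiation 5 rose and 0 fell (median 0.32, but 0.16 with loess offsets and -0.46 by STD scaling), among them miR-27b-3p and miR-23a-3p of the miR-23-27-24 clusters that are known to limit Th2 cells. Both of these calls were lost with loess offsets (0.04 and 0.22, edgeR adjusted p = 0.794 and 0.111), by library size alone, with naive libraries fitted alone, with no filter and without WT library 1, 2 or 3. Of 17 miRNAs lost on activation 6 rose and 0 fell (median 0.18, but 0.04 with loess offsets and -0.57 by STD scaling). Of 21 induced by activation 3 rose and 2 fell (median 0.16).

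**Figure D4:**
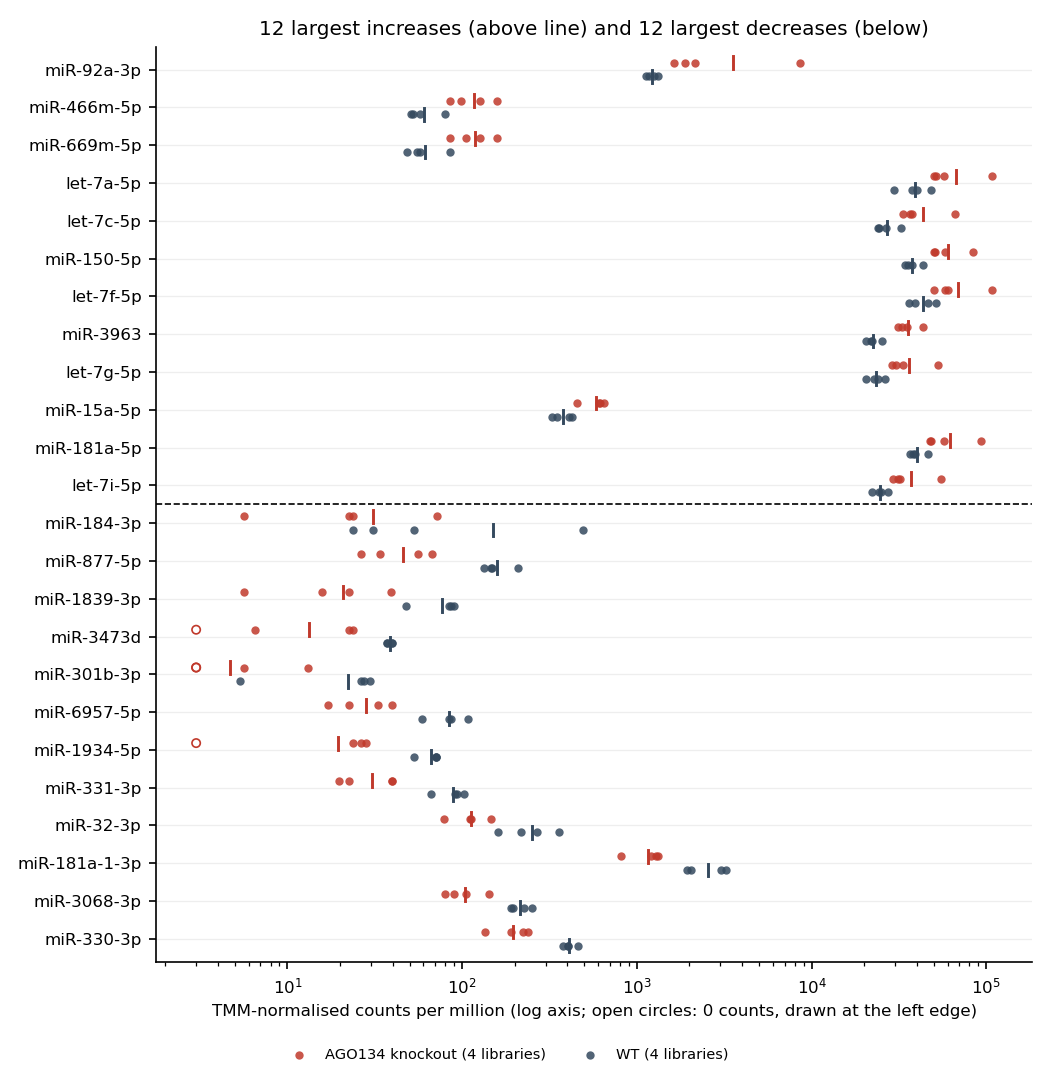
TMM-normalised CPM (x axis, log scale) are plotted for the 12 largest called increases (above the dashed line) and the 12 largest called decreases (below it) in the 4 AGO134 knockout libraries (upper row of points) and the 4 WT libraries (lower row), with the group mean as a vertical bar and libraries with 0 counts as open circles at 3 CPM. Knockout library 4 is the far right point of the let-7 rows and of miR-92a-3p (8571 CPM), and for miR-184-3p WT library 1 (492 CPM) stands alone.

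The deepest well-separated fall was that of miR-877-5p. It is a mirtron, cut from an intron of Abcf1 by the spliceosome in place of Drosha, at chr17:35960730-35960814 on the minus strand of GRCm38.p6. It was at 55.5, 26.2, 34.0 and 67.5 CPM in knockout libraries, against 134.1, 208, 146 and 149 CPM in WT libraries. The highest knockout library was well below the lowest WT library (log2 change -1.96, SE 0.28, edgeR adjusted p = 2.21e-05), on 3 to 7 counts per knockout library and 28 to 47 per WT library. Its partner miR-877-3p averaged 43.4 ± 28.4 CPM in knockout and 88.1 ± 18.6 CPM in WT (SD, n = 4, log2 change -0.89, edgeR adjusted p = 0.117). Of the 4 Drosha-independent miRNAs tested, 0 rose and miR-877-5p alone fell. The others besides the miR-877 arms were miR-320-3p (log2 change -0.01) and miR-484 (-0.10).

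miR-351-5p, of the X-linked group near miR-322 and miR-503 and with the seed of the miR-125 family, was at 872, 774, 815 and 742 CPM in knockout libraries, against 1527, 1205, 1809 and 1719 CPM in WT libraries. The knockout libraries were close together and all below the WT libraries (log2 change -0.96, SE 0.14, edgeR adjusted p = 2.21e-05). miR-542-5p, of the neighbouring hairpins, fell by 0.79 on the log2 scale (edgeR adjusted p = 0.00417). miR-450a-5p of that chromosome X cluster rose by 0.37 (edgeR adjusted p = 0.04), and the 7 other tested arms of those 6 hairpins did not pass.

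miR-330-3p was at 222, 190.1, 238 and 135 CPM in knockout libraries, against 458, 402, 378 and 404 CPM in WT libraries, with no overlap (log2 change -0.99, SE 0.16, edgeR adjusted p = 0.00015). miR-30e-3p was at 3855, 3979.6, 4777 and 2789.6 CPM in knockout libraries, against 7229.8, 6976, 7209 and 7428 CPM in WT libraries. The WT libraries were close together and each was well above the highest knockout library (log2 change -0.89, SE 0.16, edgeR adjusted p = 0.000334). miR-30e-5p averaged 3875 ± 786 CPM in knockout and 3126 ± 837 CPM in WT (SD, n = 4, log2 change 0.32, edgeR adjusted p = 0.239). miR-342-5p was at 1753, 1750.5, 1891 and 1147 CPM in knockout libraries, against 2857, 3051, 2881 and 3389.6 CPM in WT libraries (log2 change -0.87, SE 0.16, edgeR adjusted p = 0.000619). At both hairpins the arm ratio above thus moved with a fall of 1 arm that passed, while the rise of the other arm did not (miR-342-3p 0.18, edgeR adjusted p = 0.329).

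Of the other large decreases, miR-331-3p fell by 1.45 on the log2 scale, miR-1839-3p by 1.94, miR-6957-5p by 1.59, miR-32-3p by 1.11 and miR-3068-3p by 1.04 (edgeR adjusted p from 0.000691 to 0.00357), with no overlap for any of these 5. miR-1839-3p had 1 to 6 counts per knockout library and 9 to 24 per WT library. miR-3473d, miR-301b-3p and miR-1934-5p each had 0 counts in 1 or 2 knockout libraries and at most 19 counts in any library, and are close to the limit of detection. miR-184-3p, a miRNA of epithelial cells, had the largest fitted decrease among the miRNAs called (-2.27, edgeR adjusted p = 0.0426). It was at 23.8, 72.1, 5.66 and 22.5 CPM in knockout libraries, against 492, 30.9, 23.6 and 53.2 CPM in WT libraries. WT library 1 alone carried the difference, and without it the miRNA did not pass the filter. In the naive libraries alone, miR-1839-3p, miR-3473d, miR-301b-3p, miR-1934-5p and miR-184-3p did not pass the filter and were not tested.

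Summed by seed, 244 groups were tested and 17 rose (6.97%) and 15 fell (6.15%), in all 32 or 13.1%, and 21 were called without WT library 1. miR-3963 (0.82), the let-7 seed (0.80), the seed of miR-25 and miR-92a (0.70), that of miR-423-5p (0.69) and that of miR-146a and miR-146b (0.66) rose most. The seeds of miR-877-5p (-1.90), miR-1934-5p (-1.42), miR-331-3p (-1.40), miR-32-3p (-1.05) and of miR-181a-1-3p with miR-181c-3p (-1.0) fell most. The miR-181 5p seed ACAUUCA rose by 0.63 (edgeR adjusted p = 0.0134), while the CCAUCGA seed of miR-181a-1-3p and miR-181c-3p fell. As an unscaled share the ACAUUCA seed took 5.98% ± 0.764 of miRNA counts in knockout and 5.53% ± 0.116 in WT (SD, n = 4), groups that overlapped.

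The remaining lists are read against the same shares of all 382 tested miRNAs, 8.12% higher and 10.2% lower. Of 11 tested members of the miR-23-27-24 clusters 3 rose and 0 fell (median 0.18, but 0.04 with loess offsets and -0.59 by STD scaling). The call of miR-23b-3p was lost in the same alternatives as given above for miR-27b-3p and miR-23a-3p. Of 5 tested members of the miR-183-96-182 cluster, which IL-2 is known to induce, 0 rose and 2 fell (miR-183-5p and miR-182-5p, median -0.36). Both calls were lost with DESeq2 (adjusted p = 0.0661 and 0.0886), with its size factors in edgeR (0.11 and 0.163), with no filter and without knockout library 1, 2 or 4 or WT library 4, and the miR-182-5p groups overlapped. Of 9 of the miR-15/16 family 2 rose and 0 fell, of 10 of the miR-30 family 1 rose and 1 fell, and of 6 of the miR-29 family 0 passed. The calls of miR-15a-5p and miR-16-5p were lost by library size alone, with no filter and without WT library 1. That of miR-16-5p was also lost with loess offsets (0.03, edgeR adjusted p = 0.867). The rise of miR-30d-5p was lost by library size alone, with loess offsets and with naive libraries fitted alone, while the fall of miR-30e-3p was kept. Of 41 of the Sfmbt2 intron cluster 3 rose and 2 fell (median 0.17), no more than those shares, and its near-identical members share reads. Of 6 regulatory T cell miRNAs 2 rose and 0 fell. Of 2 tested miRNAs that depend on AGO2 slicing 0 passed (miR-486a-5p and miR-486b-5p, which have the same counts, each with a log2 change of 0.34).

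The knockout effect in naive cells was set against the effect at day 7 and day 14 of Th2 culture, which have their own WT libraries. Of the 382 miRNAs 55 were called at day 7 (14.4%) and 75 at day 14 (19.6%). Of the 70 called in naive cells, 24 were called in the same direction at day 7, 1 in the opposite direction, and 19 in the same direction at day 14. The 9 called in the same direction at all 3 stages were let-7g-5p, miR-30d-5p, miR-140-3p and miR-3963, which rose, and miR-877-5p, miR-1934-5p, miR-3068-3p, miR-330-3p and miR-328-3p, which fell. In naive cells, let-7g-5p and miR-30d-5p lost their calls with loess offsets and with naive libraries fitted alone. miR-1934-5p lost its call in 6 of 14 alternatives and miR-3963 only under STD scaling. miR-877-5p, miR-3068-3p and miR-330-3p kept theirs in every alternative. miR-877-5p fell by 1.96 in naive cells, by 0.99 at day 7 and by 1.60 at day 14.

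The effects themselves differed between naive cells and day 7 for 9 miRNAs (2.36%) and between naive cells and day 14 for 26 (6.81%), by an interaction contrast in edgeR. For day 7 the count was 3 without WT library 1, 4 without WT library 2 and 15 without WT library 3. miR-351-5p differed from both, with changes of -0.96 in naive cells, -0.02 at day 7 and 0.01 at day 14 (interaction adjusted p = 0.00389 and 0.00155). miR-1839-3p did so as well, with -1.94, -0.26 and -0.26. miR-181a-5p rose in naive cells and had -0.24 at day 7 (interaction adjusted p = 0.031). miR-182-5p fell by 0.36 in naive cells and rose by 0.57 at day 7 (interaction adjusted p = 0.00226). miR-181a-1-3p was at -1.11 in naive cells and 0.71 at day 14 (interaction adjusted p = 0.00155). In the other direction, miR-132-3p (0.00), miR-212-5p (-0.52) and miR-146b-5p (0.25), which did not pass in naive cells, fell by 1.75, 2.45 and 1.64 at day 14.

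**Figure D5:**
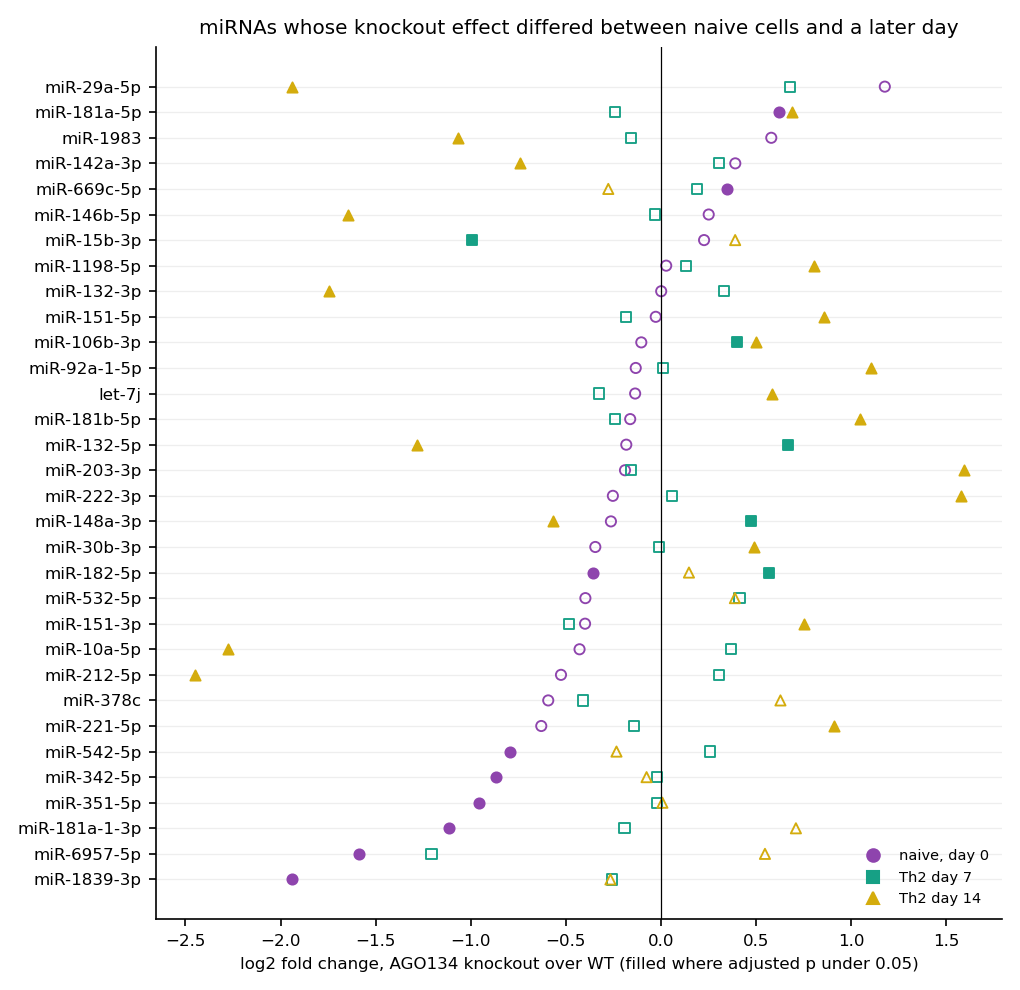
For the miRNAs whose knockout effect differed between naive cells and day 7 or day 14, the log2 fold change of AGO134 knockout over WT (x axis) is plotted for naive cells (circles), day 7 (squares) and day 14 (triangles) of Th2 culture, filled where the adjusted p was under 0.05. miR-351-5p (-0.96, -0.02 and 0.01) and miR-1839-3p lie at the left in naive cells and near 0 later, while miR-146b-5p, miR-212-5p and miR-132-3p lie to the left at day 14.

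The arm ratios were compared across stages in the same way. At day 7 the ratio differed at 11 hairpins (15.7%), 9 with a lower and 2 with a higher minor arm, and at day 14 at 1 (1.43%). The effect in naive cells differed from that at day 7 at 4 hairpins (5.71%) and from that at day 14 at 1 (1.43%). At Mir181a-1 the log2 ratio difference was -1.70 in naive cells, 0.07 at day 7 and 0.05 at day 14 (limma interaction adjusted p = 0.00661 and 0.0491). At Mir342 it was -1.10 in naive cells and -0.04 at day 7 (interaction adjusted p = 0.00637). Mir181a-2 and Mir15b (0.16 in naive cells and -1.04 at day 7) were the other two. At Mir30e the difference was 1.25 in naive cells and 1.41 at day 7, where it also passed (limma adjusted p = 0.000331), and at Mir130b -0.95 and -0.96 (adjusted p = 0.000605 at day 7).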

How the data were processed

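Small RNA libraries were prepared with a TruSeq kit and read single-end per the labels, while the series text names paired-end reads. The authors deposited counts per miRNA locus for each library, made on GRCm38, a build that the submitters' processing notes name. No source used here gives the aligner, counter, strand setting, miRBase release or any use of molecular identifiers.

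Each file held 2119 rows. The 9 rows named STD were set aside, and of 82 names with several loci the row with the highest total was kept, leaving 1966 names. The 22 AGO134 and WT libraries (naive, day 7, day 14) entered 1 edgeR 4.0.16 quasi-likelihood fit (TMM, filterByExpr, Benjamini-Hochberg) in R 4.3.3. Arm ratios, log2 with a pseudocount of 0.5, were fitted with limma 3.58.1 over the same 22 libraries. Library measures had two-sided exact permutation tests. DESeq2 1.42.0, other scalings, no filter, a replicate block, all loci and leaving out each replicate were alternatives. Tests were also run on simulated data. For the arm ratios, the simulated libraries had the same composition apart from the shifted hairpins and random spread. A library that stands apart as knockout library 4 does was therefore not covered. Reads shared by near-identical miRNAs cannot be separated, and a count of 0 allows up to 3 counts (unscaled, 15.4 to 46.7 CPM in knockout, 12.3 to 15.3 in WT libraries); floors cover counting error only. The lowest chi-square per degree of freedom between replicates was 2.89, above sampling noise.

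The named miRNAs were the 12 largest called changes each way at 10 or more CPM, the core T cell list, up to 4 called members of each list, their other arms, and the largest stage differences; others named were picked after their values were seen. Members and lists were chosen with earlier results of these data known, and arm fits, seed shares, first bases and clusters within 10 kb were added after the data were seen. RefSeq sequences matched 1675 of the 1966 names.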

Additional observations from a re-analysis of the deposited data

Results flagged for a closer look

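Among 206 groups of 4 libraries, 15 held 1 library far from the other 3, 7 in knockout and 8 in WT; chance gives about 1 in 20 such groups. In knockout cells the highest library was far above the rest for miR-92a-3p (8571 CPM), let-7a-5p (108121 CPM), let-7c-5p (66254 CPM) and let-7i-5p (54983 CPM), and for the median log2 ratio of minor to major arms (-3.91). The lowest knockout library was far below the rest for miR-142a-5p (5714 CPM) and miR-1934-5p (0 CPM). In WT cells the highest library stood apart for miR-184-3p (492 CPM) and miR-23b-3p (4475 CPM). The lowest WT library stood apart for miR-1839-3p (47.9 CPM), miR-301b-3p (5.32 CPM), miR-1934-5p (53.2 CPM), miR-363-5p (304 CPM), miR-466m-3p (26.6 CPM) and the minor arm share of Mir1843a (13.7%).

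The knockout effect in naive cells differed from that in Th2 culture, by the test of the difference, for the following. The values are log2 effects in naive cells minus those in culture. Against day 7 they were 0.86 for miR-181a-5p, -1.68 for miR-1839-3p, -0.93 for miR-182-5p, 1.22 for miR-15b-3p, -0.94 for miR-351-5p and -1.05 for miR-542-5p. Against day 14 they were -1.67 for miR-1839-3p, -2.14 for miR-6957-5p, -1.82 for miR-181a-1-3p, 1.13 for miR-142a-3p, 0.63 for miR-669c-5p, -1.24 for miR-92a-1-5p and -0.96 for miR-351-5p. Also against day 14 they were 1.90 for miR-146b-5p, 1.93 for miR-212-5p, 1.75 for miR-132-3p, 3.12 for miR-29a-5p, -1.83 for miR-222-3p, -1.21 for miR-181b-5p and -1.78 for miR-203-3p. For arm ratios they were -1.77 for Mir181a-1, -2.64 for Mir181a-2 and -1.06 for Mir342 against day 7, and -1.75 for Mir181a-1 against day 14.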

How the results depend on the processing

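The count of 70 called miRNAs was 204 under STD scaling and 37 to 73 when 1 replicate was left out. The 9 differences from day 7 were 3 by library size, 1 by STD scaling, 14 with DESeq2 and 3 to 15 without 1 replicate; the 26 from day 14 were 12 by STD scaling. The 32 seed groups were 57 by library size, 136 by STD scaling, 52 with the replicate block and 21 to 34 without 1 replicate. The 28 arm ratios were 17 with naive libraries fitted alone and 14 at equal depth. The minor-arm difference was 0.63 with a pseudocount of 1, and its direction turned to -0.018 with at least 50 counts per pair. Without 1 replicate, miRNA counts per STD count differed by -0.335 to -0.232, uridine starts by 2.68 to 4.12 points, GC content by -0.959 to -0.549 points and the share of the 10 most abundant by 3.82 to 9.04 points. Under STD scaling, which moves the median by its construction, these turned: let-7a-5p -0.10, let-7c-5p -0.18, miR-150-5p -0.16, let-7f-5p -0.21, miR-3963 -0.15, let-7g-5p -0.23, miR-15a-5p -0.13, miR-181a-5p -0.26, let-7i-5p -0.29, miR-146a-5p -0.26, miR-29a-3p -0.57, miR-155-5p -0.35, let-7d-5p -0.34, miR-24-3p -0.63, miR-21a-5p -0.55, miR-200c-3p -0.33, miR-27a-3p -0.59, miR-16-5p -0.39, miR-30d-5p -0.28, miR-25-3p -0.27, miR-27b-3p -0.38, miR-23a-3p -0.47, miR-23b-3p -0.45, miR-669c-5p -0.41, miR-150-3p -0.71, miR-26a-5p -0.43, miR-191-5p -0.41 and miR-132-3p -0.74. With loess offsets miR-26a-5p was -0.14 and miR-191-5p -0.023. The cause was not tested.

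Same-numbered libraries of the genotypes correlated at 0.035, 0.045, 0.150 and 0.093. Knockout library 1 correlated best with WT library 2 (0.101), and knockout library 2 with WT library 1 (0.064). Knockout libraries 3 and 4 correlated best with the WT libraries of their own number. These values do not settle whether the numbers are pairs, and they were not taken as pairs. With the replicate block in naive libraries fitted alone, 88 miRNAs were called, against 52 without it. Under the paired exact permutation test, whose smallest p is 0.125, uridine starts (3.61 points), GC content (-0.819 points), detected miRNAs (-44.9) and miRNA counts per STD count (-0.294) could not pass.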
